A study of Zea mays with 229 samples.

Results

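The genes described here are those that 18 or more of 23 maize regulators listed as responding in leaf protoplasts. They numbered 135 of the 19787 genes on at least 1 list. They were chosen by counting, for each gene, the distinct regulators that list it in the authors' deposited table of regulator-target edges. By the same rule, rows of Zm00001d003176 whose target is also a target of MYB56 were left out before counting. These were 1527 rows, and 343 targets of Zm00001d003176 remained. The number of listing regulators chose the genes, so it is given as a description and nothing is tested on it.

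A transcription factor binds DNA and raises or lowers transcription of nearby genes. In the TARGET assay a plasmid carrying a factor is brought into protoplasts, cells freed of their walls, and the responding genes are read by RNA sequencing. The regulators belong to families with different textbook roles. NAC and WRKY factors act in stress, defence and senescence, MYB factors in phenylpropanoid metabolism and cell identity, bZIP and homeobox factors in hormone and stress signalling, and Golden2-like factors in chloroplast development. EREB115 is named for the ethylene response element binding family, and Orphan42 carries the name given to regulators placed in no family.

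The study held 229 libraries of the maize line B73, 77 with the empty p1107 or p1107NLSmyc vector and 152 with 1 of 23 factor plasmids. Of all libraries, 115 were with nitrogen (plusN) and 114 without (minusN). Each group of 1 plasmid, nitrogen condition and batch had 2 to 4 libraries, and the labels name 11 batches. All came from the leaves of etiolated seedlings, and transfected cells were sorted for red fluorescence. No label says whether replicates were separate protoplast preparations. The table gives identifiers alone, so direction, size, error, nitrogen condition and depth are unknown for every edge. For the same reason the tissue could not be checked against marker genes. None of the 135 identifiers is paired with a symbol in the reference table used here, which follows another assembly. They are therefore named by identifier, without roles, and the lists of pathway and cell type genes could not be applied.

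The number of genes fell step by step as more regulators were asked for. At 16 regulators there were 173 genes and at 17 there were 88, just outside the minimum. Inside it, 75 genes were listed by 18 regulators, 37 by 19, 19 by 20, 2 by 21 and 2 by 22. No gap in this series sets the 135 genes apart from those below them. None of the 135 was the gene of a regulator. The gene of HB6, a homeobox factor, came closest with 17 regulators, its own list among them, and that of NAC5 had 16.

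**Figure D1:**
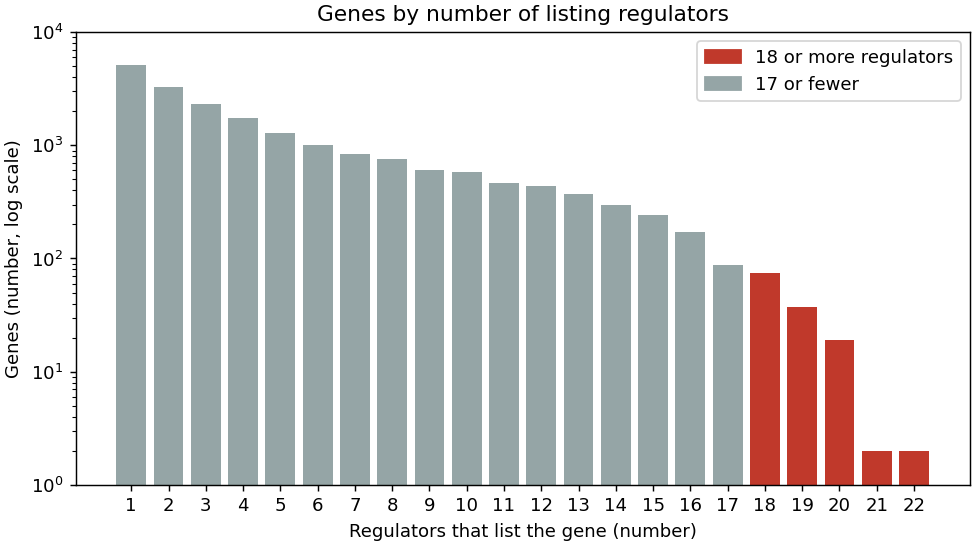
Number of genes (log scale) against the number of regulators that list them, after the rows shared by Zm00001d003176 and MYB56 were left out of the former. The bars for 18 to 22 regulators hold 135 genes, and the bar for 17 holds 88.

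The genes with the widest listing were Zm00001d021935 and Zm00001d036946. Both were on 22 lists, and both lacked Zm00001d003176, whose rows for them were among those left out. Zm00001d007381 and Zm00001d008793 were on 21 lists and also lacked NAC109. The next 19 genes had 20 lists each. Among these, Zm00001d018298 lacked MYB121, MYB56 and MYB21, Zm00001d044106 lacked bHLH92, G2 and MYB56, and Zm00001d051484 lacked bHLH92, MYB56 and EREB115. Zm00001d028129 and Zm00001d012456 lacked the same 3, GLK44, Zm00001d033859 and Zm00001d003176. Zm00001d033517 and Zm00001d038320 also shared their gaps, at MYB21, EREB115 and Zm00001d003176. Such pairs were few. The 135 genes showed 124 different sets of missing regulators, and 11 of these sets occurred in 2 genes each and the others in 1.

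Which regulators missed these genes varied widely. The 135 genes had 2519 edges and 586 gaps. The bZIP factor bZIP9 listed all 135, where its list held 40.8% of all listed genes. HB6 listed 132 (33.7% of all listed genes) and NAC61 also 132 (41.9%). WRKY107 and MYBR3 listed 131 each, against 32.3% and 21.5% of all listed genes. NAC5, MYB34 and MYB121 listed 130 each, against 30.6%, 22.2% and 32.8%. WRKY36 listed 129 (23.6%), while MYB81 and bHLH92 listed 126 each (14.5% and 18.6%). These 11 regulators had 53 of the gaps between them, and 87 of the 135 genes (64.4%) were on all 11 lists, as were 220 (1.11%) of all listed genes. The minimum of 18 lists itself favours such genes.

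The other 12 regulators had 533 gaps. G2, the Golden2 factor, listed 116 genes (28.1% of all listed genes). NAC66 and Zm00001d032024 listed 107 each, the first from a list of 7.73% and the second from one of 23.7% of all listed genes. GLK44, a Golden2-like factor, listed 105 (11.2%), and MYB56 and MYB21 listed 104 each (10.4% and 8.96%). Orphan42 listed 101 (20.2%), bHLH47 listed 91 (14.5%) and EREB115 listed 89 (13.9%). Zm00001d033859 listed 89 as well, from a list of 3.35% of all listed genes. NAC109 listed 62, from a list of 3.33%. Zm00001d003176 listed 12, from the 1.73% that its list held after rows were left out. The denominator of these percentages is the 19787 genes on any list, since how many genes the authors tested is unknown here.

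**Figure D2:**
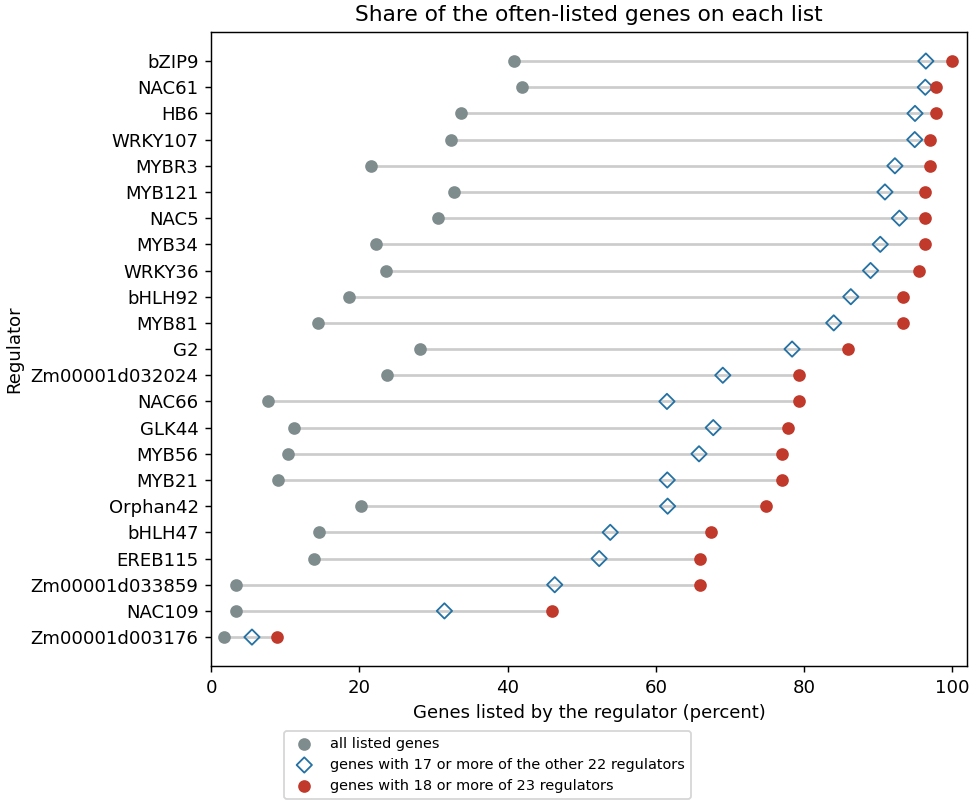
For each regulator, the percent of all listed genes on its list (grey), of the 135 genes chosen on 23 regulators (red) and of the genes chosen on the other 22 regulators (open blue). The blue value lies between the others in every list, from 5.50% for Zm00001d003176 to 96.4% for bZIP9.

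Longer lists held more of the 135 genes. Over the 23 regulators, list length and the number of these genes listed had a Spearman rho of 0.86. It is given as a description because the listings themselves chose the genes. Lists of like length differed all the same. MYB81 and bHLH47 were tested in the same batch and had 2860 and 2874 targets, yet MYB81 missed 9 of the 135 genes and bHLH47 missed 44. MYB81 listed 42 of the 44 that bHLH47 missed. EREB115, with 2744 targets, missed 46. Among lists of 4002 to 4696 targets, Orphan42 missed 34 and Zm00001d032024 missed 28, whereas MYBR3, MYB34 and WRKY36 missed 4, 5 and 6. At the short end, Zm00001d033859 (663 targets) and NAC109 (658 targets) missed 46 and 73. Of the Zm00001d033859 list 13.4% were among the 135 genes, and of the NAC109 list 9.42%. For bZIP9 that share was 1.67%.

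The gaps at Zm00001d003176 largely follow from the rule. Of the 135 genes, 100 stand in its deposited list, and 88 of these rows were left out because MYB56 lists the gene too. The 12 that remained, Zm00001d018298, Zm00001d044106 and Zm00001d051484 among them, therefore lack MYB56 by construction. The other 35 genes are not on the list of Zm00001d003176 at all. Besides this regulator, the 135 genes had 463 gaps.

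**Figure D3:**
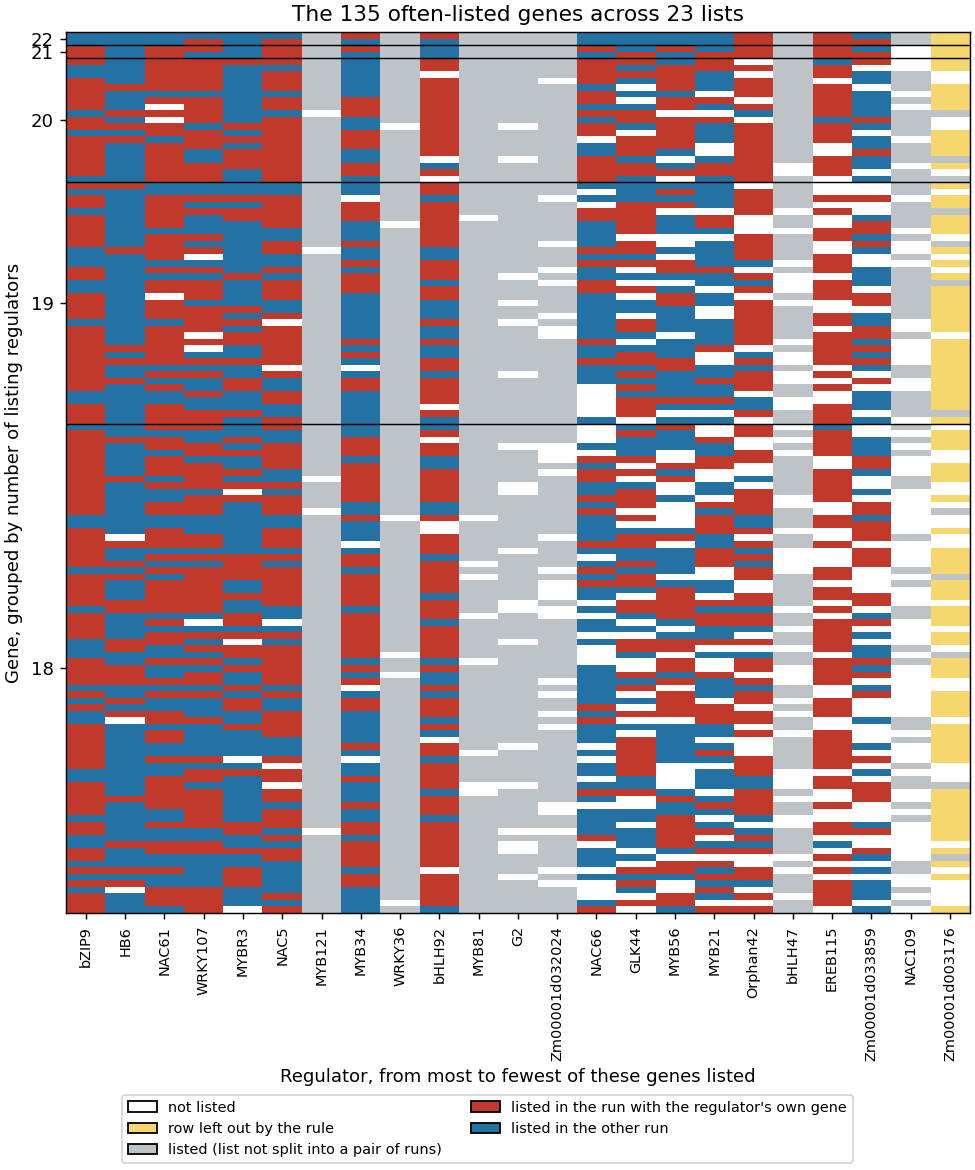
Each of the 135 genes (rows, grouped by number of listing regulators) against the 23 regulators (columns). White marks a gene not listed and yellow a row left out by the rule; red and blue mark the side of a list that stands in a pair of runs. White cells gather at the right, where NAC109 missed 73 genes and Zm00001d033859 and EREB115 missed 46 each, and bZIP9 at the left has none.

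Gaps of related or same-batch regulators did not simply coincide. MYBR3, MYB34 and NAC109 were tested in 1 batch. All 4 genes missed by MYBR3 (Zm00001d008585, Zm00001d021936, Zm00001d038070 and Zm00001d053818) were also missed by NAC109, as were 4 of the 5 missed by MYB34. NAC109 missed 73 (54.1%) of all 135 genes, however. Zm00001d003176, of unknown batch, also missed all 4 and all 5. The MYB34 and MYBR3 gaps shared 1 gene, Zm00001d038070. EREB115 and Orphan42, of 1 batch, missed 46 and 34 genes and shared 9 of these gaps. GLK44 and MYB21, of another, missed 30 and 31 and shared 6. The Golden2-like pair GLK44 and G2, of different batches, missed 30 and 19 and shared 1. Zm00001d033859 and MYB21 shared 16 gaps, which were 34.8% of the former's and 51.6% of the latter's. Of all 135 genes, MYB21 missed 23.0% and Zm00001d033859 missed 34.1%. NAC109 and bHLH47, of different batches, shared 25 gaps, 34.2% of those of NAC109 and 56.8% of those of bHLH47. These shares were near those over all 135 genes, of which bHLH47 missed 32.6% and NAC109 missed 54.1%. Since no gene of the set may have more than 5 gaps, shared gaps are limited by the rule and were not tested.

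For the long lists each gap can be named. These genes were singled out after their values were seen. HB6 missed Zm00001d014820, Zm00001d028814 and Zm00001d049127. NAC61 missed Zm00001d018203, Zm00001d020811 and Zm00001d031724. WRKY107 missed Zm00001d023384, Zm00001d037724, Zm00001d040027 and Zm00001d019758. The last was also missed by NAC5, a factor of the same batch, and was the 1 gene those 2 lists both lacked. Zm00001d044918 lacked NAC5 and MYB34, and Zm00001d039572 lacked NAC5 and MYB81.

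Regulators of 1 batch may have been set against the same empty vector libraries, which the sources used here do not state. The titles match 20 of the 23 regulators to 9 batches. An edge of G2 was counted for both of its batches. In each of these genes at least 7 of the 9 batches had a listing regulator, and in 66 of the 135 genes all 9 had one. Since a gene of the set has at most 5 gaps, this coverage is largely fixed by the rule. Asked of every matched regulator of a batch, the median fell to 6 batches. Zm00001d021935 and Zm00001d036946 were listed by every matched regulator of all 9. Of the 4 factors NAC5, bHLH92, NAC61 and WRKY107 tested together, all listed 115 of the genes (85.2%), and 6.55% of all listed genes. Of EREB115, Orphan42 and G2, tested together, all listed 54 (40%), and 3.07% of all listed genes, and no gene was missed by all 3. G2 had libraries in 2 batches, and its rows form 2 listings. The smaller held 78 of the 135 genes, the larger 93, and both 55. Thus 47.4% of the 116 genes under G2 stood in both listings, against 31.8% of all G2 targets.

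To read each list without its own part in the choice, genes were also chosen on the other 22 regulators. Of genes with at least 17 of those 22, bZIP9 listed 96.4% (135 of 140) and NAC61 96.4% (132 of 137). The median over the 23 regulators was 78.4%, and every regulator listed a higher share than its list's share of all listed genes. The difference between MYB81 and bHLH47 was also seen here, with 84% of 150 and 53.8% of 169 such genes listed. EREB115 listed 52.4%, Orphan42 61.6%, Zm00001d033859 46.4% and NAC109 31.5%. The share for MYB56 was 65.8%, lowered by construction where a kept row of Zm00001d003176 counts toward the choice. When genes were chosen on regulators of other known batches, the 20 matched regulators listed a median of 75.9%. The values went from 26.2% for NAC109 to 94.3% for bZIP9. The minimum was then 13 of 16 to 15 of 19 regulators, with unmatched ones left out, so this median and the 78.4% rest on unlike choices. Each of the 20 again listed more than its share of all listed genes. These lists come from the same kind of cells, and how readily a gene passes the authors' thresholds was not measured, so the shares are given without a test.

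In 22 of the 23 lists the share of genes listed rose with the number of other regulators at each step. Zm00001d003176 was the exception, with 7.99% of genes at 12 to 14 other regulators, 6.55% at 15 to 16 and 5.50% at 17 or more, after its rows were left out. NAC109 listed 0.20% of genes with 1 to 2 other regulators, 13.1% of those with 12 to 14 and 31.5% of those with 17 or more. For bZIP9 the same groups gave 20.5%, 87.6% and 96.4%. Zm00001d033859 went from 24.4% at 15 to 16 other regulators to 46.4% at 17 or more. Over that last step bHLH47 went from 48.1% to 53.8% and EREB115 from 41.3% to 52.4%. MYB81 lay below both of them at 1 to 2 other regulators, with 2.35%, and above both from 6 to 8 on.

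**Figure D4:**
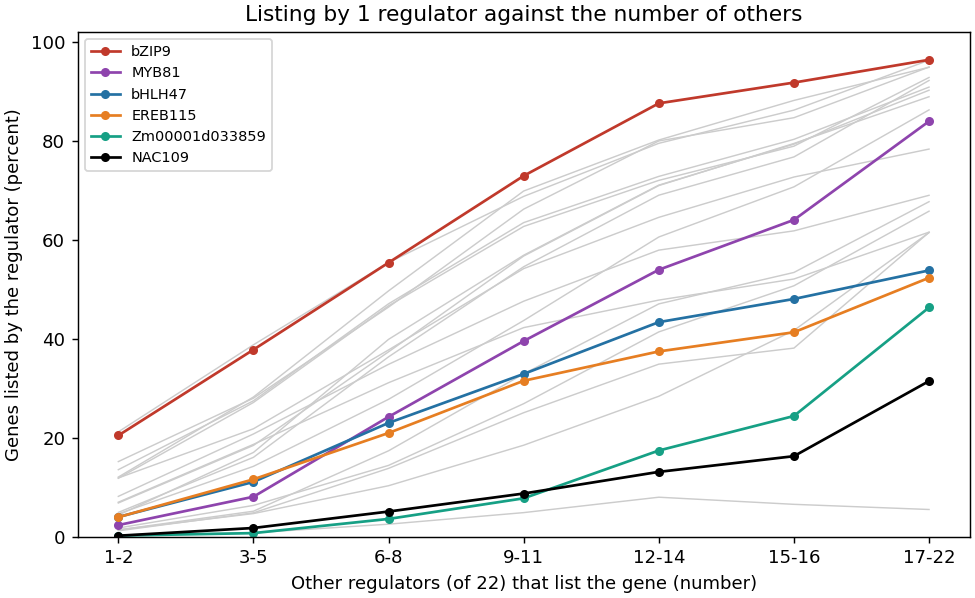
Percent of genes on a regulator's list (vertical axis) against the number of the other 22 regulators that list the gene (horizontal axis); 6 regulators are coloured and the others grey. The coloured lines rise at each step, bZIP9 from 20.5% to 96.4% and NAC109 from 0.20% to 31.5%, and the lowest grey line, Zm00001d003176 after rows were left out, falls from 7.99% to 5.50% over the last steps.

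The order of rows in the deposited table gave a further description. Rows of a regulator stand together in stretches, here called runs, of which there are 42, and what orders the rows is not stated. The own gene of NAC109 is absent from its list, and G2 has a run with its own gene in both of its listings. Of the 23 runs that hold the regulator's own gene, which the plasmid itself can supply, 9 open with it and 20 have it in their first 10% of rows. The 135 genes also stood early. Their rows had a median relative place of 0.186, where 0 is the first and 1 the last row of a run, against 0.509 for the rows of other genes. Placed in a regulator's whole list, with its runs joined in table order, the medians were 0.329 and 0.504. In the first 10% of a run stood 34.8% of their rows and 9.30% of the rows of other genes. For genes on 17 lists, just below the minimum, the median place was 0.21. All 135 genes had a median place before the middle. Across runs the median place of these genes went from 0.053, in the bZIP9 run with its own gene, to 0.555, in a short G2 run. It lay before the middle in 40 of the 42 runs. For the runs of Zm00001d003176 this used all deposited rows, also those left out elsewhere. The order comes from the same comparisons as the listing, so these values support nothing about it.

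**Figure D5:**
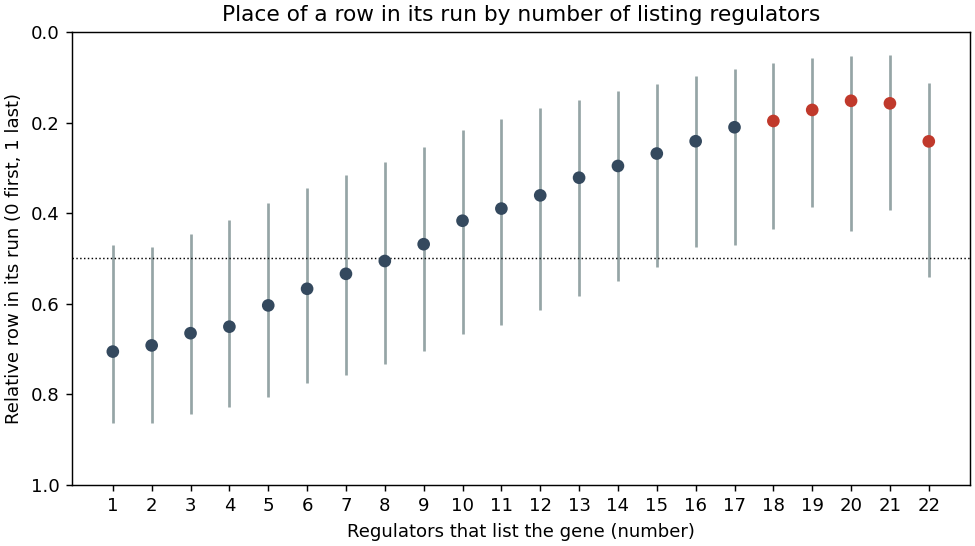
Relative place of a row in its run (0 first, 1 last; the axis points down) against the number of regulators that list the gene; points are medians and lines span the interquartile range of the rows. The median moves from 0.706 for genes on 1 list to 0.151 for genes on 20 lists, and is 0.241 for the 2 genes on 22 lists.

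A few genes stood at the very top. The first 10 rows of the runs held 63 rows of 38 of these genes. That was 15.5% of 406 such rows, while these genes made up 2.78% of all rows. Both shares leave out the rows of Zm00001d003176 whose target MYB56 also lists. Zm00001d028129 opened a bZIP9 run and stood in row 3 for MYB81, row 4 for bHLH92, row 5 for Zm00001d032024 and row 10 for WRKY36. Zm00001d046805 opened the MYB81 run and stood in row 6 of a bZIP9 run and row 7 of a Zm00001d033859 run. Zm00001d001865 opened a run in both listings of G2 and stood in row 4 of a run of GLK44, the other Golden2-like factor. Zm00001d009619 opened a MYBR3 run and stood in row 3 for MYB34 and row 5 for MYB81. Zm00001d033241 opened a WRKY107 run. At the other end, Zm00001d052901, on 19 lists, had a median place of 0.454, and Zm00001d028814 was in the first 10% of no run. The 2 genes with 22 lists were not among the earliest, with median places of 0.213 for Zm00001d021935 and 0.381 for Zm00001d036946.

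For 15 regulators the list stands in 2 runs that share no gene, and what separates them is not stated in the sources used here. The side of a row is named here by whether its run holds the regulator's own gene. NAC5 had 65.4% of its 130 genes of the set on the side of its own gene, against 25.5% of its whole list. WRKY107 had 58.8% against 33.0%, NAC61 64.4% against 49.9% and bZIP9 72.6% against 57.9%. bHLH92 was reversed, with 72.2% against 90%. HB6 differed little, with 20.5% against 24.1%, as did NAC66 (32.7%, 33.0%) and MYB56 (48.1%, 49.4%). Shares were also near for MYB34 (46.9%, 44.4%), EREB115 (95.5%, 92.9%) and Zm00001d033859 (42.7%, 39.4%). They were higher in the set for Orphan42 (78.2%, 64.1%), MYBR3 (34.4%, 25.4%), MYB21 (37.5%, 29.7%) and GLK44 (54.3%, 47.4%). No gene of the set stood on the own-gene side in each of its 2-run lists, and none stood on the other side in all. Each gene had 11 to 15 such lists, and the same count for other genes was not made. These counts are therefore not read as a trait of the set. The highest share was that of Zm00001d043741, with 13 of 14 lists on the own-gene side, followed by Zm00001d019060 with 12 of 13. The lowest share was 3 of 12, in 8 genes, Zm00001d001865, Zm00001d005978, Zm00001d013109, Zm00001d023384, Zm00001d027863, Zm00001d042664, Zm00001d044918 and Zm00001d051977. Zm00001d021935 had 4 of 15 and Zm00001d036946 had 5 of 15.

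Sides went together in some pairs of 1 batch and not in others. NAC5 and WRKY107 shared 127 genes of the set, of which 64 were on the own-gene side and 32 on the other side of both lists, a correlation of 0.48 across genes. For all 3056 genes these 2 lists share the correlation was 0.22. NAC61 with WRKY107 gave 0.43 in the set and 0.32 over all genes they share. NAC5 with NAC61 gave 0.36 and 0.27. bHLH92, of the same batch, went the opposite way, with -0.34 against NAC61, -0.32 against NAC5 and -0.27 against WRKY107. Over all genes these pairs share the values were also negative, at -0.18, -0.34 and -0.21. MYBR3 and MYB34 gave 0.33 in the set and 0.59 over all genes they share. HB6 and bZIP9, also of 1 batch, gave -0.04 in the set and -0.27 over all genes they share. The median over 10 same-batch pairs was 0.13, from -0.34 to 0.48, and over all genes they share it was 0.22. There were 81 pairs of regulators of different batches with at least 50 shared genes of the set. Their median correlation was 0.03, from -0.20 to 0.37, and over all genes they share it was 0.01. Pairs with Zm00001d033859, whose batch is unknown, are in neither group. They went from -0.35 with NAC66 to 0.32 with bZIP9. With MYB21 the value was 0.31 in the set and 0.52 over all genes they share. Correlations are across genes of the same 2 lists, which share libraries within a batch if controls were shared, and carry no test.

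Some of these genes have neighbouring identifiers. In 4 cases the 2 numbers are consecutive. Zm00001d021935 had 22 lists and Zm00001d021936 had 18, all of them shared, with the same side in 8 of 13 lists with 2 runs. Zm00001d011655 and Zm00001d011656 had 18 each and shared 16, on the same side in 10 of 12. Zm00001d007687 and Zm00001d007688 had 20 and 18 and shared 17, on the same side in 6 of 11. Zm00001d006677 and Zm00001d006678 had 19 and 18 and shared 15, on the same side in 9 of 11. Whether such genes overlap or resemble each other, so that reads could be split between them, was not tested.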

How the data were processed

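The authors' deposited table holds text identifiers of a regulator, a target and both joined, with no score, count or other measured value. The submitters' processing notes name the tools featureCounts and edgeR and the build B73 RefGen_v4. Versions, thresholds, library depths and the way nitrogen conditions and batches were combined are unknown here. The table has 94256 rows and 92485 distinct edges, of which 1527 of Zm00001d003176 were left out, leaving 90958. Identifiers in the sample titles matched 20 regulators to plasmids and batches. Zm00001d003176, Zm00001d032024 and Zm00001d033859 stayed unmatched. The plasmids KN1, NLP3 and ZmMYB38 carry no identifier in their titles, so they were paired with none of these. Runs are consecutive rows of 1 regulator. The 2 listings of G2 are its 4 runs joined in the one way that repeats no gene inside a listing. Shares, gaps and row places were computed with Python 3.11.15, numpy 2.4.6 and pandas 2.3.3, plots were drawn with matplotlib 3.10.9, and the counting steps were checked on a simulated table. The members and lists were chosen with earlier results of these data known. Genes were named if on 21 or more lists, if they were regulators or if a symbol was known; all others were named after their values were seen. No test was run, since the listing chose the genes.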

Additional observations from a re-analysis of the deposited data

How the results depend on the processing

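The set held 135 genes, 190 with all rows of Zm00001d003176 kept and 105 with G2 counted where its edge is listed 2 times. By construction it held 223 genes at a minimum of 17 and 60 at a minimum of 19. Without the 3 unmatched regulators, at 16 of 20, it held 219. Leaving out 1 batch gave 64 to 137 genes, the lowest without HB6 and bZIP9, followed by 71 without NAC5, bHLH92, NAC61 and WRKY107. Leaving out 1 regulator gave 60 to 130; the lowest value was without bZIP9 or NAC61. In all of these the minimum, rounded up, was a stricter share of regulators (15 of 19 to 18 of 22), so the counts do not measure the left-out lists alone. The median number of batches per gene was 8, and 6 where every regulator of the batch had to list it. The median number of gaps was 5, and 4 with all rows of Zm00001d003176 kept. The median share of these genes on a list was 85.9%, and 74% to 90% under its other settings. The median row place was 0.329 over whole lists and 0.186 within runs. Choosing genes on regulators of other batches, and keeping all rows when gaps are counted, were settings chosen after seeing the data. No paired analysis was possible because edges carry no value for single libraries. Which edges were listed is limited by a depth that is unknown here.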
